A study of Homo sapiens with 10 samples.

Results

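The glypicans and syndecans are the cell-surface heparan sulfate proteoglycans, and the 10 human genes that encode them, GPC1 to GPC6 and SDC1 to SDC4, were taken from the 57955 genes measured. The families were chosen by a measured value, the GPC1 count, which was higher in every resistant line of these data, so the comparison of resistant with sensitive libraries is given for their members as a description, with no test. A glypican core protein is held to the outer face of the membrane by a lipid (GPI) anchor, whereas a syndecan crosses the membrane and has a short cytoplasmic tail that binds scaffold and signalling proteins. Both carry heparan sulfate chains, which bind growth factors such as the FGFs and present them to their receptors, and enzymes at the cell surface can edit the chains or release the core proteins. In melanoma these molecules lie between the tumour cell, its matrix and the growth factors that act on it.

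mRNA was sequenced in 5 melanoma cell lines with the BRAF V600E mutation that were sensitive to encorafenib, a BRAF inhibitor (BRAFi), and binimetinib, a MEK inhibitor (MEKi), and in the resistant line (E+BRes) made from each. WM983A, WM278 and WM902B came from primary tumours, WM983B and WM1617 from metastases. WM983A and WM983B share a patient, as do WM278 and WM1617. The resistant lines were grown under both inhibitors for 3 to 5 months, with the dose stepped up from 1 nM until it reached 200 nM, and stayed under 200 nM, while the sensitive lines received neither, so resistance and the presence of the drugs cannot be told apart. There was 1 library for each line and state, 10 in all, and the 5 lines stood in for replicates of each group. The p-values therefore rest on the spread between lines or, where cell line is in the fit, on how far the lines differed in their change, and not on repeated cultures of a line.

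The libraries held 13970608 to 16966008 counts in the sensitive group and 13693922 to 18033247 in the resistant group, and 3 counts, taken as the smallest detectable level, equalled 0.166 to 0.219 CPM, a count put on the scale of a standard library. Across the 17288 genes kept for testing, 4 resistant libraries correlated best with their own sensitive counterpart (Pearson r of 0.869 to 0.976), but resistant WM983A did so with sensitive WM902B (r = 0.813, against 0.787 with its own). Results without WM983A are therefore also given for some members and for the genes called in the lists without cell line in the fit. Genes called only with cell line in the fit were not refitted without WM983A. SOX10, a transcription factor that defines the melanocyte lineage, lay between 63.6 and 71.3 RPKM (reads per kilobase of exon, scaled to library size) in the sensitive libraries. It was at 56.8 and 70.0 RPKM in resistant WM278 and WM1617, but at 1.34, 2.62 and 0.138 RPKM in resistant WM983A, WM983B and WM902B. All 8 melanocytic markers were above 3 counts in at least 1 library of each group, and their summed level was 121 to 1088 RPKM in sensitive libraries and 19.7 to 1042 in resistant ones. Fewer cells with a transcript and less of it per cell cannot be told apart in these bulk libraries, for markers and members alike. Of the immune cell markers, PTPRC and CD3E were at or under 3 counts in all resistant libraries, LYZ reached 50.4 counts in resistant WM1617, and CD68 had 72.5 to 1157 counts in all 10. The 4 endothelial markers summed to at most 8.44 RPKM, in sensitive WM278 through KDR (850 counts, and 81.0 in resistant WM278), with CDH5 at or under 3 counts throughout.

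The promoters of the 4 genes on which the results turn are shown as the 250 bases before the RefSeq start on GRCh38.p14, read 5′ to 3′ on the strand of the gene. GPC1 was higher in every resistant line, SDC3 lower in every one, SDC1 had the largest single log2 ratio, and GPC6 had the largest F value in the test between lines. The windows are chr2:240435413-240435662 (GPC1, plus strand), chr1:30908759-30909008 (SDC3, minus strand), chr2:20225476-20225725 (SDC1, minus strand) and chr13:93226557-93226806 (GPC6, plus strand). Capitals mark the GC box GGGCGG, the letters bound by SP1-type factors, on either strand, with overlapping matches counted.
GPC1: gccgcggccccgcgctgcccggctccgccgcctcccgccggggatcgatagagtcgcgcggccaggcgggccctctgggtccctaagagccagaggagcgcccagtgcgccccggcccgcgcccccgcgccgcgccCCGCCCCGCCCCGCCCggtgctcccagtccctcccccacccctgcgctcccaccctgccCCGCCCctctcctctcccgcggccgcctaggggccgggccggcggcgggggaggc
SDC3: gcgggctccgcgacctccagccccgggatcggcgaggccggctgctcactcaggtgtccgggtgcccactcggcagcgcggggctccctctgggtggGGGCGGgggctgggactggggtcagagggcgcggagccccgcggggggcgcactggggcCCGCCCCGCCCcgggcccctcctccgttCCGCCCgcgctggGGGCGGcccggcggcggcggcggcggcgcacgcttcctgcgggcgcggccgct
SDC1: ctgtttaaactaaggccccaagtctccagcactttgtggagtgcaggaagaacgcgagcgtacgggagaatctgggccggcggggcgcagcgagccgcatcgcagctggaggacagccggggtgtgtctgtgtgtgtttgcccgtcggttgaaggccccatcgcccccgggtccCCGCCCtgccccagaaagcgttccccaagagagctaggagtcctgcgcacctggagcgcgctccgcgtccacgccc
GPC6: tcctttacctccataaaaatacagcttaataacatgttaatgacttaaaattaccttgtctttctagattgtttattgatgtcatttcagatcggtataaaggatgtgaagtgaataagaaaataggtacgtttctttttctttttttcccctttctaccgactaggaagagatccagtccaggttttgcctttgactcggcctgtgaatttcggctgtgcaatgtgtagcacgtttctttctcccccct
The GPC1 window held 4 GC boxes, 36 CpG and 84% G or C, and the SDC3 window held 5, 37 and 83.6%. The SDC1 window held 1 GC box and 66.4% G or C. The GPC6 window held none, with 6 CpG and 37.6% G or C. Over all 35116 promoters of that length 42.6% held a GC box, and the medians were 58% G or C and 11 CpG. The promoter table also held GPC2, GPC4, GPC5 and SDC4, with 3, 2, 2 and 8 GC boxes. None of these 8 windows held the AP-1 motif TGANTCA, the E-box CACGTG or the ETS motif CCGGAAG on either strand, which 6.57%, 6.34% and 8.52% of all promoters held. Any link between the content of these windows and the levels of the genes was not tested.

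GPC1 (ENSG00000063660, chr2:240435663-240468076, plus strand, GRCh38) encodes the glypican found in many adult tissues and tumours, a co-receptor for FGF2. Its normalized count was 834, 1529, 2167, 2298 and 1007 in sensitive WM983A, WM983B, WM278, WM1617 and WM902B. In the resistant libraries, in the same order, it was 5219, 3975, 5606, 3114 and 5152. Every resistant library lay above every sensitive one. The sensitive lines spread more widely than the resistant ones, with an SD of the log2 level of 0.65 against 0.35. Within lines GPC1 was 6.26-fold higher in WM983A, 5.12-fold in WM902B, 2.60-fold in WM983B, 2.59-fold in WM278 and 1.36-fold in WM1617. The log2 ratio averaged 1.64 ± 0.88 (SD, n = 5 lines), or 1.39 ± 0.78 without WM983A. The lines with the lowest sensitive level, WM983A and WM902B, had the largest ratios, and the line with the highest, WM1617, had the smallest. The sensitive level is itself part of the ratio. Over all genes tested, the sensitive and resistant libraries were also most alike in WM1617 (r = 0.976) and least alike in WM983A (r = 0.787). The part of either in the GPC1 ratios was not tested. GPC1 was the only member higher in all 5 lines, as were 5.74% of all genes tested, and the only one whose groups did not overlap upward, as for 0.44% of all genes. The antisense gene GPC1-AS1 overlaps GPC1 on the opposite strand, as other antisense genes do GPC3, GPC5 and GPC6, and whether reads were assigned by strand is not given in the sources used here.

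**Figure D1:**
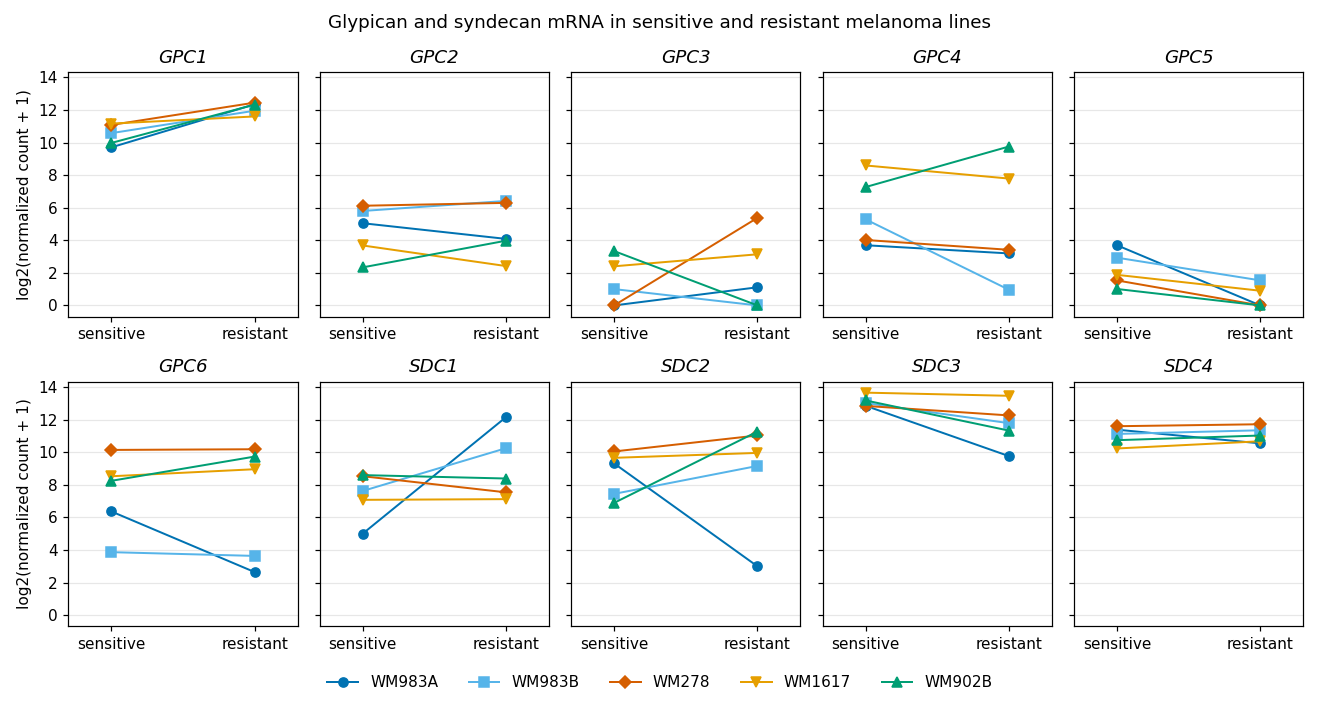
Level of each glypican and syndecan gene as log2(normalized count + 1), in the sensitive and the resistant library of each of the 5 lines, joined by a line. GPC1 lies between 3114 and 5606 normalized counts in the resistant libraries, above the sensitive range of 834 to 2298, whereas SDC1, SDC2 and GPC6 move by line, with WM983A farthest.

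The other glypicans were below GPC1 in every library, GPC6 in sensitive WM278 least so (10.5 RPKM against 21.9). GPC2 (ENSG00000213420, chr7:100169606-100177381, minus strand), a glypican of the developing nervous system, was at 32.1, 54.8, 68.6, 11.8 and 4.05 normalized counts in the sensitive libraries. It was at 16.0, 84.5, 77.7, 4.34 and 14.7 in the resistant ones, always in the order WM983A, WM983B, WM278, WM1617 and WM902B. GPC2 was therefore higher in 3 lines and lower in WM983A and WM1617, with a mean log2 ratio of 0.04 ± 1.19 (SD, n = 5). GPC4 (ENSG00000076716, chrX:133300103-133415489, minus strand), the neighbour of GPC3 on the X chromosome, was at 11.97, 38.1, 15.2, 386 and 153 in the sensitive libraries. It was at 8.15, 0.952, 9.67, 221 and 865 in the resistant ones. GPC4 was thus lower in 4 lines and higher in 1, with log2 ratios from -4.32 in WM983B to 2.49 in WM902B. In resistant WM902B it came next after GPC1 among the glypicans per length (11.5 RPKM, GPC6 7.87), while in the sensitive library GPC6 was above it (2.80 against 2.04).

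GPC6 (ENSG00000183098, chr13:93226807-94408020, plus strand), a glypican needed for the growth of long bones, was at 81.5, 13.6, 1129, 367 and 302 in the sensitive libraries. In resistant libraries it was at 5.24, 11.4, 1162, 496 and 850. The count of sensitive WM983B was 1 of 455 that the deposited table held as dates, and was recovered as 13.5. All 4 libraries of WM983A and WM983B, lines of the same patient, were below every library of the other 3 lines. This split was picked after the values were seen, and the share of all genes with it was not counted. GPC6 was nearly level in WM278 (log2 ratio 0.04) and WM983B (-0.23), was 0.43 and 1.49 in WM1617 and WM902B, and was -3.73 in WM983A. Its mean log2 ratio was -0.40 ± 1.97 (SD, n = 5) and, without WM983A, 0.43.

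GPC3 (ENSG00000147257, chrX:133535745-133987100, minus strand), the oncofetal glypican of liver cancer, and GPC5 (ENSG00000179399, chr13:91398621-92873682, plus strand), the neighbour of GPC6, were too low for the filter, which left 8 of 10 members in the tests. GPC3 had 0, 1, 0, 3.96 and 9 counts in the sensitive and 1, 0, 42, 9 and 0 in the resistant libraries. It passed 9 counts only in resistant WM278, at least 14.2-fold above a floor of 3 counts for the sensitive library, and in WM902B it was at least 2.96-fold lower after resistance. GPC5 had 12, 6.61, 2, 2.47 and 1 counts in the sensitive and 0, 2, 0, 1 and 0 in the resistant libraries. Its counts were lower in all 5 lines, but 3 of those lines were at or under 3 counts in both states and allow no fold. In WM983A GPC5 was at least 3.43-fold lower.

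SDC3 (ENSG00000162512, chr1:30869466-30908758, minus strand), the syndecan of neural and neural crest-derived tissue, ranked first or next after SDC4 per length in every sensitive library. Its normalized count there was 7408, 8315, 7358, 12941 and 9290. In resistant libraries it was 868, 3531, 4910, 11316 and 2572. SDC3 was lower in all 5 lines, as were 5.33% of all genes tested and, among the members, GPC5, and its groups overlapped through WM1617 alone. It was 8.53-fold lower in WM983A, 3.61-fold in WM902B, 2.35-fold in WM983B, 1.499-fold in WM278 and 1.14-fold in WM1617. The mean log2 ratio was -1.39 ± 1.14 (SD, n = 5), and -0.97 ± 0.73 without WM983A. The 3 resistant libraries lowest in SDC3 were also those with the lowest melanocytic marker sums, 19.7, 33.2 and 28.8 RPKM in WM983A, WM902B and WM983B, against 408 in WM278 and 1042 in WM1617. Within WM278, however, the marker sum was higher after resistance (121 RPKM before) while SDC3 was lower. That rise was in S100B, at 51.4 RPKM before and 346 after, while SOX10 was at 66.0 and 56.8. Every other melanocytic marker was at or under 1.95 RPKM in both states of WM278. The part of these markers in the SDC3 values was not tested.

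SDC1 (ENSG00000115884, chr2:20200797-20225433, minus strand), the syndecan of epithelia and plasma cells, differed in direction between lines. It was at 30.9, 196, 368, 134 and 386 normalized counts in the sensitive libraries. In the resistant ones it was at 4565, 1216, 185, 138 and 334. Resistant WM983A was therefore 148-fold and resistant WM983B 6.21-fold above the sensitive line, both from the same patient, whereas WM278 was 1.99-fold lower and WM1617 and WM902B differed by 1.03-fold and 1.16-fold. The mean log2 ratio of 1.73 ± 3.33 (SD, n = 5) was 0.37 ± 1.57 without WM983A. The 6 epithelial markers summed to 283 RPKM in resistant WM983A and 17.5 in its sensitive line, and to 69.7 and 8.46 in WM983B. They were also higher in resistant WM902B (71.2 against 50.2) and WM1617 (61.1 against 57.8), where SDC1 was not, or hardly, higher, and lower in resistant WM278 (21.6 against 98.7). KRT8 and KRT18 made up most of each sum, at 112 and 156 RPKM in resistant WM983A and 31.8 and 37.6 in resistant WM983B. In WM278 KRT18 was at 94.8 RPKM before and 18.9 after resistance. EPCAM and CDH1 were at 4.58 and 9.87 RPKM in resistant WM983A, and at 0.128 and 0.0103 in resistant WM983B. The part of these markers was not tested.

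SDC2 (ENSG00000169439, chr8:96493813-96611790, plus strand), the syndecan of fibroblasts and other mesenchymal cells, was at 636, 173, 1057, 806 and 118 in the sensitive libraries. In the resistant libraries it was at 6.97, 571, 2090, 994 and 2466. It was higher in 4 lines, most in WM902B at 21.0-fold, and 91.2-fold lower in WM983A. In WM983B, from the same patient as WM983A, SDC2 was 3.30-fold higher. The mean log2 ratio was 0.21 ± 3.96 (SD, n = 5), and 1.84 ± 1.79 without WM983A. In WM983A SDC1 and SDC2 thus exchanged places: before resistance SDC2 had 10.3 RPKM and SDC1 0.565, and after it SDC2 had 0.113 and SDC1 83.3. The 7 fibroblast markers summed to 195 RPKM in resistant WM902B, where SDC2 was highest, and to 1.20 in resistant WM983A, where it was lowest. In WM902B most of the sum was COL1A1 (137) and PDGFRB (42.4), with COL3A1 at 2.77. The rest of the list did not follow there. LUM was at 10.3 RPKM before and 10.7 after resistance, and FAP at 1.67 and 1.60. COL1A2 had 2.99 and 1 counts and THY1 2 and 3.36. The other resistant libraries did not follow this order, with 52.9 in WM983B, 22.1 in WM278 and 5.88 in WM1617. The part of these markers was not tested.

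SDC4 (ENSG00000124145, chr20:45325288-45348424, minus strand), the widely expressed syndecan of focal adhesions, had the smallest spread of log2 ratios. It was at 2675, 2231, 3099, 1201 and 1710 in the sensitive and 1493, 2607, 3369, 1632 and 2086 in the resistant libraries. It was 1.09-fold to 1.36-fold higher in 4 lines and 1.79-fold lower in WM983A, with a mean log2 ratio of 0.05 ± 0.51 (SD, n = 5). Without WM983A the mean was 0.27 ± 0.135.

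**Figure D2:**
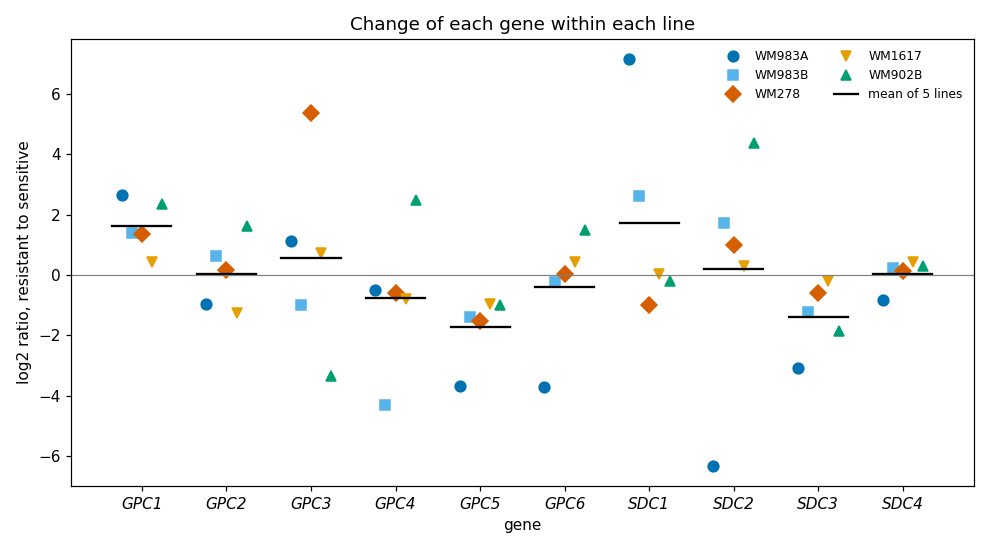
Change of each gene within each line, as a log2 ratio (resistant over sensitive normalized count, each with 1 added), with 1 symbol per line and a bar at the mean of the 5 lines. All 5 points of GPC1 lie above 0 and all of SDC3 and GPC5 below it, although GPC3 and GPC5 rest on few counts, while SDC1 reaches 7.16 and SDC2 -6.32 in WM983A.

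Levels of different genes were compared per length of exon, in RPKM. The 10 genes together summed to 154 to 205 RPKM in the sensitive libraries (median 158) and 172 to 238 in the resistant ones (median 194). Glypicans made up 6.42% to 16.5% of the sum in sensitive libraries (median 10.9%) and 19.2% to 36.9% in resistant ones (median 29.2%), without overlap. GPC1 held 64.9% to 90% of glypican mRNA in sensitive and 72.6% to 99.1% in resistant libraries. The share of SDC3 had a median of 49.3% (33.6% to 60.8%) in the sensitive and 19.2% (4.44% to 51.6%) in the resistant group. The ratio of GPC1 to SDC3 was 0.117 to 0.319 in sensitive and 0.298 to 6.51 in resistant libraries, where WM983A was the highest and WM1617 the lowest. The leading gene was SDC3 or SDC4 in every sensitive library, whereas in the resistant libraries it was SDC1 in WM983A, SDC4 in WM983B, WM278 and WM902B, and SDC3 in WM1617. The shares of SDC3 and GPC1 moved least in WM1617, from 60.8% to 51.6% and from 11.7% to 15.4%. Because these shares were made from the counts on which the families were chosen, they describe the libraries and were not tested.

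**Figure D3:**
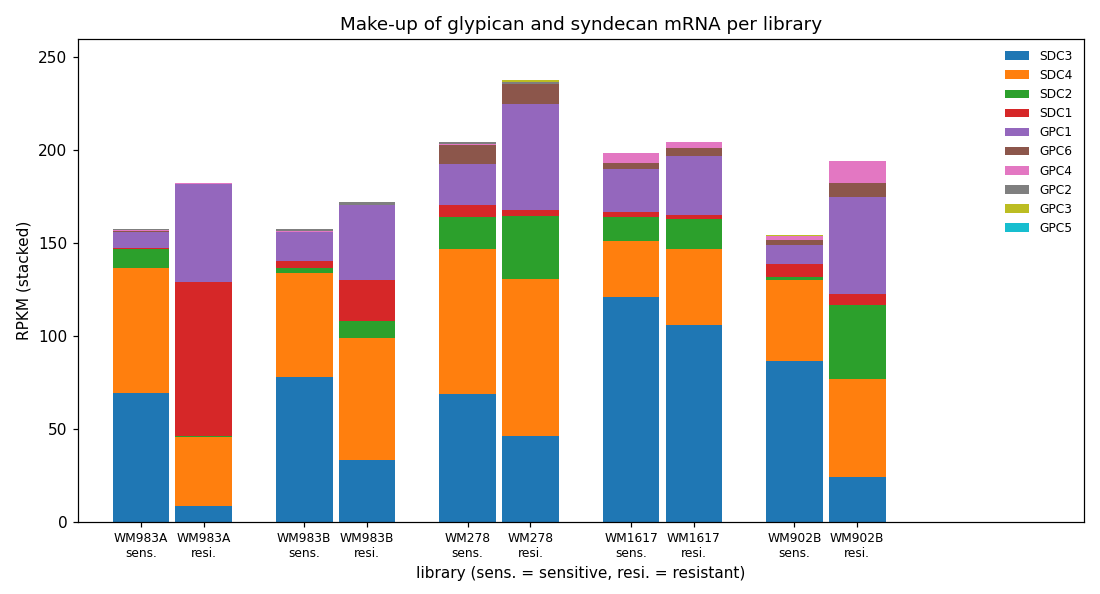
Stacked RPKM of the 10 genes in each library, with the sensitive and the resistant library of a line side by side and 1 colour per gene. In WM983A, SDC3 is at 69.2 RPKM before and 8.11 after resistance and SDC1 reaches 83.3, and the GPC1 layer is thicker in every resistant library, at 31.5 to 56.7 RPKM against 8.44 to 23.2.

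Whether a member differed between lines was tested independently of resistance, with an edgeR quasi-likelihood F test of the line terms beside the condition. GPC6 (F = 9.40, adjusted p = 0.1), GPC4 (F = 8.002, adjusted p = 0.118) and GPC2 (F = 7.65, adjusted p = 0.123) had the largest F values. These 3 of 8 members passed an unadjusted p of 0.05, as did 23% of all genes, and none passed an adjusted p of 0.05, as did 1.46% of all genes. With DESeq2 the same 3 genes passed the adjusted threshold, at 0.00175 for GPC2, 1.27e-06 for GPC6 and 4.86e-06 for GPC4, but DESeq2 called 3560 genes in all where edgeR called 252. GPC1 (F = 0.515, adjusted p = 0.805), SDC2 (F = 0.502, adjusted p = 0.811) and SDC1 (F = 0.828, adjusted p = 0.677) were at the other end, with SDC4 (adjusted p = 0.285) and SDC3 (adjusted p = 0.32) between. The glypicans of low abundance thus had the larger F values and GPC1 one of the smallest. A small F did not mean an even level, as the test sets lines against how far they differed in their change. In sensitive libraries the SD of the log2 level was 0.65 for GPC1, 1.47 for SDC1 and 1.41 for SDC2. In resistant libraries it was 0.35, 2.09 and 3.40. GPC6 passed the adjusted threshold without WM983A (adjusted p = 0.0175), a setting in which 1694 of 17465 genes did.

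The 6 libraries from lines of primary origin were compared with the 4 of metastatic origin, with the condition in the edgeR fit. SDC3 came nearest to the threshold, with a log2 fold of primary to metastatic of -0.93 (SE 0.50, adjusted p = 0.723). Its mean log2 level was 12.04 in primary and 12.98 in metastatic lines. GPC6 (1.41, SE 1.40, adjusted p = 0.85) and SDC1 (0.99, SE 1.03, adjusted p = 0.859) had larger point estimates but also larger errors. GPC1 was at 0.01 (SE 0.35, adjusted p = 0.996). None of the 8 members passed, even unadjusted, which 6.91% of all genes did, and an adjusted p of 0.05 was passed by 0% of all genes with edgeR and by 126 genes, none of them a member, with DESeq2. Only 3 primary and 2 metastatic lines were compared, and both libraries of a line share their source. The fit took the libraries as independent and did not pair each metastatic line with the primary line of the same patient.

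Among the members, levels over the 10 libraries were most alike for GPC2 and SDC4 (Pearson r = 0.785) and for GPC6 and SDC2 (r = 0.736). GPC1 was nearest to SDC1 (r = 0.559) and farthest from SDC3 (r = -0.622), and SDC1 and SDC3 were the most opposed pair (r = -0.764). GPC4 was nearest to GPC6 (r = 0.532) and farthest from GPC2 (r = -0.723). SDC3 was nearest to SDC2 (r = 0.493). These values share the libraries and their scaling, and those of SDC1, SDC2 and GPC6 span the extreme library of resistant WM983A. Over all genes tested, the patterns nearest to that of GPC1 were those of GPR135, an orphan G protein-coupled receptor (r = 0.959, 35.7 to 63.1 normalized counts in sensitive and 59.2 to 90.6 in resistant libraries), RIN2, an exchange factor for a Rab GTPase (r = 0.933), GMDS-AS1 (r = 0.932), RP3-368A4.6 (r = 0.931) and SOCS2-AS1 (r = 0.926). In all 16 genes had an r over 0.9 with GPC1. By the log2 ratios of the 5 lines alone, IDH3G, TMEM126B, TBCK, PEX13 and RPS15P5 were nearest (r = 0.998 to 0.995), but with 5 points 390 genes exceeded 0.9.

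The genes that build, modify, read or shed heparan sulfate were then compared between resistant and sensitive libraries over all 17288 genes, in 8 lists of 85 genes, 1 of which held chondroitin sulfate core proteins for comparison. At a fold of at least 2 and an unadjusted p of 0.05, 5 of the 70 list genes that were tested were higher and 1 lower, against 3.53% and 0.885% of all genes. No list gene passed an adjusted p of 0.05 with edgeR or DESeq2, and over all genes edgeR called 0% and DESeq2 called 111. With cell line as a replicate block 5 list genes were higher and 3 lower, against 3.49% and 2.05% of all genes. Of the 70 tested list genes, 5 were higher in all 5 lines and 3 lower in all 5, against 5.74% and 5.33% of all genes. None of the 11 genes that start and polymerise the chain and none of the 5 that supply sulfate passed without the block, with median log2 folds of -0.20 and -0.12, against 0.03 over all genes. Of the 5 for sulfate, 2 had a positive fold. PAPSS2, 1 of these, was higher in all 5 lines, 120.6-fold in WM983A and 1.57-fold to 1.93-fold in the others. Its log2 fold was 1.48 (SE 1.225, adjusted p = 0.838). EXT1 and EXT2, which together form the chain polymerase, were at 0.81 (SE 0.41, adjusted p = 0.723) and -0.49 (SE 0.42, adjusted p = 0.847). Below, a gene is said to pass where its fold was at least 2 and its unadjusted p at most 0.05, and the adjusted p by edgeR is printed beside it.

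Of the 10 tested genes that modify the chain (median 0.05), 1 passed. HS6ST1, the 6-O-sulfotransferase that shapes sites bound by FGFs and their receptors, had a normalized count of 270, 281, 453, 265 and 195 in the sensitive and 1211, 412, 693, 284 and 1570 in the resistant libraries, in the order given for GPC1. HS6ST1 was higher in all 5 lines, as were GPC1 and 5.74% of all genes tested. Its log2 fold was 1.51 (SE 0.46, adjusted p = 0.63), and it passed with the block too (adjusted p = 0.464). Of 11 tested ligands and receptors (median 0.95), FGFR1, a receptor that binds FGF together with heparan sulfate, passed at 1.07 (SE 0.36, adjusted p = 0.63), but not with the block (adjusted p = 0.471). It was at 442 to 1246 normalized counts in the sensitive libraries and 843 to 2936 in the resistant ones, and lower only in WM1617, the line in which GPC1 differed least.

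Of the 10 genes listed as cytoplasmic partners of syndecans (median 0.19), 2 passed higher and 1 lower, against 3.53% and 0.885% of all genes. Direct binding to a syndecan tail was not checked for each gene of this list, SYNPO included. PRKCA, the protein kinase C isoform that binds the SDC4 tail, was at 1.67 (SE 0.65, adjusted p = 0.669) and did not pass with the block (adjusted p = 0.479). SYNPO, an actin-associated protein, was higher in all 5 lines, at 2.67 (SE 1.12, adjusted p = 0.685), and passed with the block (adjusted p = 0.461). TIAM1, a Rac exchange factor, was lower in 4 lines, at -1.35 (SE 0.54, adjusted p = 0.676), and passed with the block (adjusted p = 0.461). SDCBP, which encodes the syndecan-binding scaffold syntenin, was at -0.17 (SE 0.51, adjusted p = 0.969).

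None of the 8 tested genes for chain editing and shedding (median 0.05) and none of the 9 other heparan sulfate core proteins (median 0.59) passed without the block. With it, COL18A1 (1.87, adjusted p = 0.461) and SRGN (1.74, adjusted p = 0.461), both core proteins and both higher in all 5 lines, passed. The convertase gene PCSK6 (1.82, adjusted p = 0.467) and, lower, the sulfate transporter gene SLC26A2 (-1.21, adjusted p = 0.467) did so as well. In WM1617 SRGN rested on few counts, 0.868 in the sensitive and 5 in the resistant library. Of the 6 tested chondroitin sulfate core proteins (median 0.22), VCAN, a large proteoglycan of the matrix, passed at 1.58 (SE 0.56, adjusted p = 0.632), but not with the block (adjusted p = 0.504). CSPG4, a melanoma surface antigen, passed only with the block, at -2.20 (adjusted p = 0.466). Without both WM983A libraries, HS6ST1 (1.31) and FGFR1 (1.03) still passed, and PRKCA (0.95), SYNPO (2.79), TIAM1 (-1.17) and VCAN (1.31) did not.

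**Figure D4:**
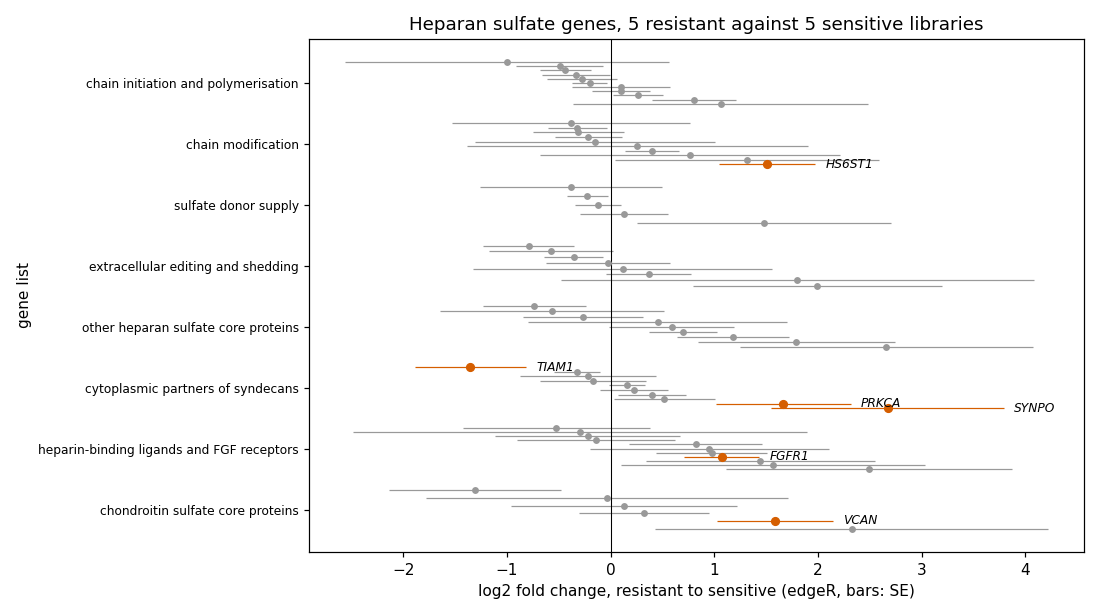
Log2 fold change of resistant to sensitive libraries with its SE for each tested gene of the 8 lists, by edgeR over 5 against 5 libraries, with 1 list per row. The named orange points had an unadjusted p of at most 0.05 and a fold of at least 2, and no gene passed an adjusted p of 0.05 (lowest 0.63).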

How the data were processed

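Poly(A) mRNA was selected with oligo-dT and read from 1 end over 75 cycles on an Illumina NextSeq instrument. HISAT2 (alignment to GRCh38) and StrandNGS (quantification) were used by the authors; versions, annotation and strand setting are not given in the sources used here. The raw values the authors deposited are expected counts, of which 24.1% of those above 0 are whole. The second deposited column is a log2 ratio to the sensitive library of the same line, which could be rebuilt to within 1.63e-06 and was used only as an alternative and to recover 455 counts of sensitive WM983B that had become dates.

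Expected counts were rounded and tested in R 4.3.3 with edgeR 4.0.16 (filterByExpr by condition, TMM, glmQLFit and glmQLFTest, two-sided, Benjamini-Hochberg over 17288 genes), with DESeq2 1.42.0 and limma 3.58.1 as alternatives. Normalized counts are expected counts scaled by TMM, and RPKM uses the union of exons in GENCODE release 44. Log2 ratios within lines add 1 to both counts, and folds do not. Tests were tried on simulated data first. The pairing by cell line comes from the study, in which each resistant line derives from the sensitive line of its name. Deviations from the group means correlated between the libraries of a line at -0.06 (WM983A) to 0.67 (WM278 and WM1617), with a mean of 0.44, against -0.11 between different lines.

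All members are named. Of the lists, genes with a fold of at least 2 and an unadjusted p of at most 0.05 are named, and others given were chosen after their values were seen. For GPC1 the 5 nearest genes by each measure are named. The members and lists were chosen with earlier results of these data known. Positions are from GENCODE release 44 on GRCh38 and promoters from RefSeq, which matched 8 of 10 members. Figures were drawn with Python 3.11.15 and matplotlib 3.10.9. Floors of 3 counts cover counting error only.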

Additional observations from a re-analysis of the deposited data

Results flagged for a closer look

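SDC2 was set apart by 1 library. Its log2 level in resistant WM983A lay 6.16 below the nearest of the other 4 resistant libraries, a gap that took 0.745 of the whole range of the resistant group, more than the limit for 5 samples. In counts, SDC2 had 5.99 there and 600 to 2402 in the others. Of 20 groups examined (10 genes in each state) this was the 1 case that stood out, and chance alone gives such a case in about 1 of 20 groups. It is the same library that correlated best with the sensitive library of another line.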

How the results depend on the processing

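Among the lists, 6 genes passed the unadjusted test, with 5 to 9 under DESeq2 size factors, DESeq2, a minimum of 10 counts in every library, removal of genes held as dates, limma-voom and the replicate block by cell line (8). Without a filter 10 passed. Leaving out 1 library gave 3 (without sensitive WM983B) to 14 (without resistant WM1617), with 10 without sensitive WM1617. Without both WM983A libraries 2 passed (HS6ST1 and FGFR1) and without both WM1617 libraries 14, settings chosen after seeing the data. No list gene passed adjusted under any of them. The share of all genes that passed unadjusted was given above only for the main fit and the replicate block. Without that share for the other settings, a higher or lower count cannot be called particular to the lists. For lines, 3 members passed unadjusted, and 2 to 4 when 1 line was left out. With at least 10 counts in every library 4 members could be tested and 0 passed. That filter removed GPC2, GPC4 and GPC6, the 3 that had passed, so it cannot show whether their result holds. Adjusted, 0 passed with edgeR, 3 with DESeq2, 2 without a filter and 0 to 1 when 1 line was left out. For origin, 0 passed, and 0 to 1 when 1 line was left out (SDC3 without WM983B, GPC6 without WM1617, GPC4 without WM902B). GPC1 was higher in every line under all settings tried, joined by SDC2 and SDC4 without WM983A (1 to 3 members). SDC3 and GPC5 were lower in every line, joined by GPC4 without WM902B (2 to 3). No call reversed its direction, but the mean log2 ratio of GPC6 turned from -0.40 to 0.43 without WM983A and that of SDC4 from 0.05 to -0.05 without WM1617. Without WM902B the means of GPC2, SDC2 and SDC4 changed sign as well, and without WM983B those of GPC2, SDC2 and GPC4. Without WM278 that of GPC3 did so. Over all genes, the adjusted line test called 252 with edgeR, 3560 with DESeq2, 1323 without a filter, 114 with at least 10 counts in every library, and 1 (without WM278 or WM1617) to 1694 (without WM983A) when 1 line was left out. Depth limits GPC3 and GPC5, whose counts stayed at 12 or fewer outside resistant WM278.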

Other observations

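SULF1 and SULF2, the extracellular enzymes that remove 6-O-sulfates from the chains, were picked after their values were seen and are described without a test. SULF1 was at 207, 416, 2957, 3.25 and 1.01 normalized counts in sensitive WM983A, WM983B, WM278, WM1617 and WM902B. In the resistant libraries it was at 0, 452, 12019, 4.34 and 3.24. WM278 thus held most of it in both states. Within lines it was 4.06-fold higher in WM278 and at least 59.3-fold lower in WM983A. SULF2 was at 2.00, 1.51, 20.4, 311 and 4.55 in the sensitive and 9.61, 8.34, 21.5, 237 and 91.2 in the resistant libraries, so that WM1617, nearly without SULF1, had the most SULF2 in both states. The largest fold of SULF2 within a line was in WM902B, 20.1-fold higher.

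AGRN, which encodes the basement membrane proteoglycan agrin, was at 874, 4190, 6020, 3861 and 2707 in the sensitive and 8041, 16993, 7142, 3237 and 4582 in the resistant libraries. It was higher in 4 lines and lower in WM1617, with a log2 fold of 1.18 (SE 0.54, adjusted p = 0.702, edgeR) that did not pass.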
